A study of Saccharomyces cerevisiae with 16 samples.

Results

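The genes described are the protein-coding genes of the yeast mitochondrial genome, taken by name from a list of 10 symbols. Of the 4073 genes that carried a symbol on the array, 9 were on that list, namely COX1, COX2, COX3, COB, ATP6, OLI1, VAR1, AI5_ALPHA and AI5_BETA, with 2 spots each. The symbol ATP8 was not among the named spots and this gene is not analysed here. The members were chosen by symbol, and the spots assigned to them were selected on the agreement of the log2 ratios of duplicate spots. The list itself was drawn up after values of these arrays had been seen, so the ratios, ranks and adjusted p-values of its genes are descriptions and lend no independent support to any pattern. All values are log2 ratios between 2 RNA samples on a two-colour array, and the files hold no intensity, so neither the level of a gene nor whether it was detected can be given.

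The study used 16 arrays of Saccharomyces cerevisiae in the W303 background, 2 for each of 8 comparisons, with the dyes exchanged between the 2 arrays. The mutant carried esa1-L254P::NatRMX4, an allele of the gene for the catalytic subunit of the NuA4 histone acetyltransferase complex, and was set against wild type W303. Methyl methanesulfonate (MMS), a DNA-alkylating agent, was given at 0.05% for 1 hour and compared with no treatment. G1 cells were held by the mating pheromone alpha factor for 1 hour before the treatment. S phase cells had been held for 2 hours, washed and released into medium with or without MMS. Every comparison was thus either esa1-L254P over wild type, with MMS or untreated, or MMS over untreated, in esa1-L254P or in wild type. No label says whether the 2 arrays of a comparison came from separate cultures, so the p-values measure the spread between arrays, which may be technical.

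The yeast mitochondrial genome encodes a few core subunits of the inner-membrane complexes that carry out respiration and ATP synthesis, whereas most subunits of the same complexes come from nuclear genes. COX1, COX2 and COX3 encode the catalytic core of cytochrome c oxidase, COB encodes cytochrome b of the bc1 complex, and ATP6 and OLI1 encode the proton channel of ATP synthase. VAR1 encodes a protein of the small mitochondrial ribosomal subunit. COX1 and COB are interrupted by introns, some with reading frames for maturases or endonucleases that act in splicing or intron mobility, and AI5_ALPHA and AI5_BETA are reading frames of COX1 introns. Genes of this chromosome are transcribed by the mitochondrial RNA polymerase Rpo41 with its factor Mtf1, mostly as long units that are cut into separate RNAs. OLI1 and VAR1 share one such unit, and COX1, ATP8 and ATP6 share another. Yeast mitochondrial messenger RNAs have no long poly(A) tail. Here RNA was isolated on oligo-dT cellulose and copied from an anchored oligo-dT primer, so the ratios concern whatever part of the mitochondrial RNA passed both steps.

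The rows of the value table do not follow the probe numbers of the platform annotation. The row order was found by scoring 15552 regular orderings of the 15744 spots by how well the 2 spots of a gene matched, with no use of the direction of any change. The order chosen scored 1.22 and the next best 0.0440, and in 2036 genes left out of the search the 2 spots correlated at 0.699 to 0.947 on each array. MAG1, the alkylation repair glycosylase gene, was called higher with MMS in all 4 such comparisons, by 0.86 to 1.12 on the log2 scale. RNR3 and HUG1, genes of the DNA damage checkpoint response, were called higher with MMS in S phase cells of both strains. In G1, RNR3 was at 0.00 in esa1-L254P and at -0.25 in wild type, where it was called lower, and HUG1 was at 0.07 in esa1-L254P and 0.01 in wild type and was not called. The labels give the dye of each RNA, and the sign was taken as Cy5 over Cy3. As deposited, ratios of a dye-swapped pair should be opposite in sign. Their correlations over all genes ran from -0.72 to -0.46 in the MMS over untreated comparisons. For esa1-L254P over wild type with MMS they were 0.61 in S phase and 0.22 in G1, and without MMS they were -0.29 in S phase and -0.16 in G1. The positive values show a component shared by the 2 arrays that followed the dye and not the strain. It was not particular to MMS-treated strain pairs. Deviations of same-numbered arrays correlated at 0.619 to 0.892 over all 28 pairs of comparisons.

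**Figure D1:**
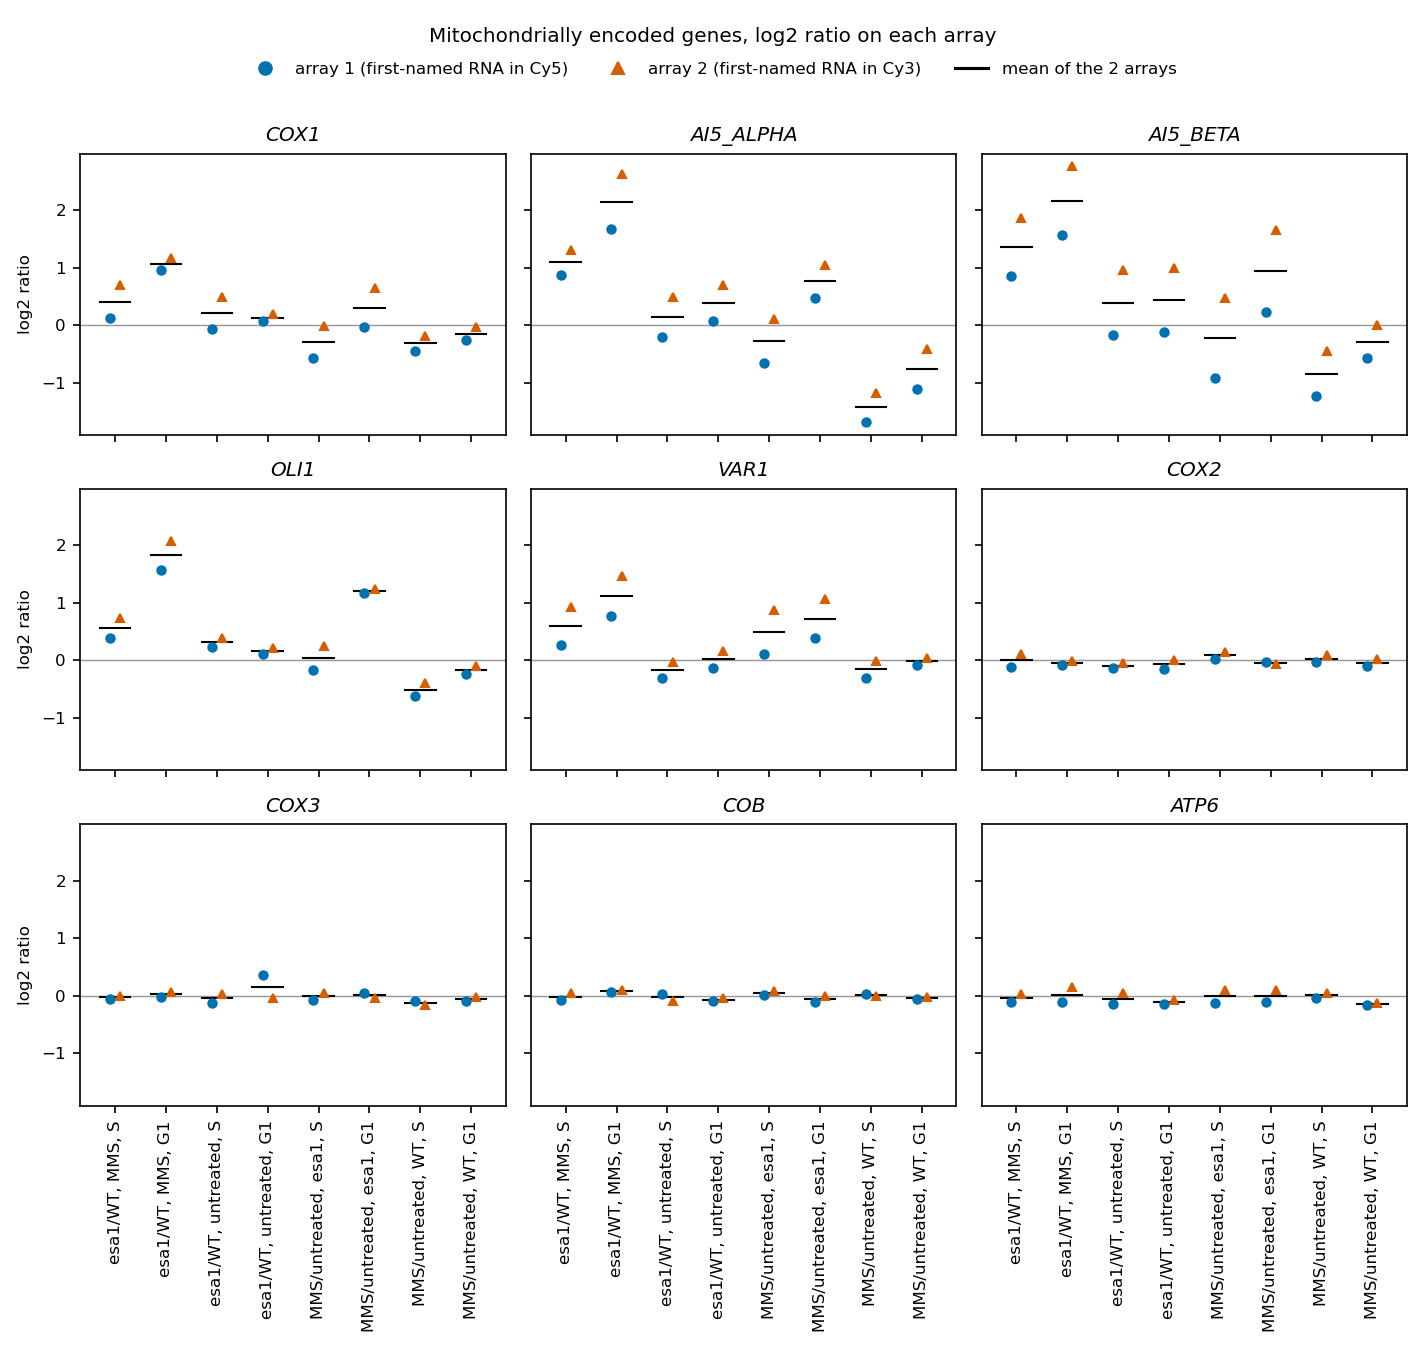
Log2 ratio (vertical axis) of each of the 9 genes on each of the 16 arrays, by comparison (horizontal axis; esa1 stands for esa1-L254P and WT for wild type). Circles are arrays with the first-named RNA in Cy5, triangles are arrays with it in Cy3, and bars are means of the 2 arrays; COX1, AI5_ALPHA, AI5_BETA, OLI1 and VAR1 moved over a wide range, while COX2, COX3, COB and ATP6 stayed between -0.16 and 0.37 on every array.

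The members had their highest median in the strain comparison of MMS-treated G1 cells, where 5 of the 9 were called higher in esa1-L254P and none lower. In this comparison 4.54% of all genes were called higher and 5.25% lower. The median of the 9 was 1.06 on the log2 scale, against 0.01 over all genes. In RNA from bulk cultures, more cells with a transcript and more transcript per cell cannot be told apart. A gene was called where its limma p-value was under 0.05 after Benjamini-Hochberg adjustment over all 4073 genes. Limma is a linear model with a spread estimate shared between genes. Standard errors (SE) and intervals came from the same fit, which used all 16 arrays at once. The SE of a gene was therefore the same in all 8 comparisons, and it is not the spread of the 2 arrays of a comparison. With the array number, which is also the dye orientation, as a block the same number of members was called, against 29.5% of all genes in either direction.

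Among the cytochrome oxidase genes, COX1 had log2 ratios of 0.95 and 1.17 on the 2 arrays of MMS-treated G1 cells. Its mean was 1.06 ± 0.21 (SE of the fit), or 2.09-fold higher in esa1-L254P, with an adjusted p of 0.0148. COX2 stood at -0.07 and -0.01 and COX3 at -0.02 and 0.07 in the same comparison. COX1 was therefore near or above a doubling on both arrays, while both other core subunit genes lay within 0.1 of 0. Without intensities, COX2 and COX3 can be unchanged or below detection. The 95% interval of the log2 ratio ran from 0.59 to 1.53 for COX1, from -0.22 to 0.13 for COX2 and from -0.18 to 0.24 for COX3.

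AI5_ALPHA and AI5_BETA, the listed reading frames of COX1 introns, had higher mean ratios than COX1, a difference that was not tested. AI5_ALPHA had log2 ratios of 1.66 and 2.62 in esa1-L254P over wild type with MMS in G1. Its mean was 2.14 ± 0.31 (SE of the fit), 4.41-fold, with an adjusted p of 0.00394. AI5_BETA had 1.56 and 2.76, a mean of 2.16 ± 0.51 (SE of the fit), 4.47-fold, with an adjusted p of 0.0289. Counted from the highest ratio of all 4073 genes, AI5_BETA was at rank 2, AI5_ALPHA at rank 3 and COX1 at rank 40. The second array was higher than the first for both intron frames, by about a whole log2 unit.

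The proton channel genes of ATP synthase split in the same comparison. OLI1, which encodes the ring subunit, had log2 ratios of 1.58 and 2.08. Its mean was 1.83 ± 0.14 (SE of the fit), 3.55-fold higher in esa1-L254P, with an adjusted p of 0.000432 and rank 4 of all genes. ATP6, which encodes the stator side of the channel, had -0.11 and 0.15, a mean of 0.02 with a 95% interval from -0.19 to 0.23. The intervals of OLI1 and ATP6 did not overlap, but whether the ATP6 spots were above detection is not known.

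VAR1, the gene next to OLI1 in the gene table, had log2 ratios of 0.78 and 1.47 in esa1-L254P over wild type with MMS in G1. Its mean was 1.12 ± 0.25 (SE of the fit), 2.18-fold higher in esa1-L254P, with an adjusted p of 0.0219 and rank 30. COB, the only bc1 subunit of this genome, stood at 0.06 and 0.11, a mean of 0.08 with a 95% interval from -0.06 to 0.23. All 5 members that were called had both arrays above 0.75, and none of the other 4 reached 0.16 on either array. The calls rested on both arrays being used. Without the second array 1 member was called, OLI1, and AI5_ALPHA had an adjusted p of 0.0603. Without the first array 2 members were called, AI5_ALPHA and OLI1, and AI5_BETA had an adjusted p of 0.0861.

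**Figure D2:**
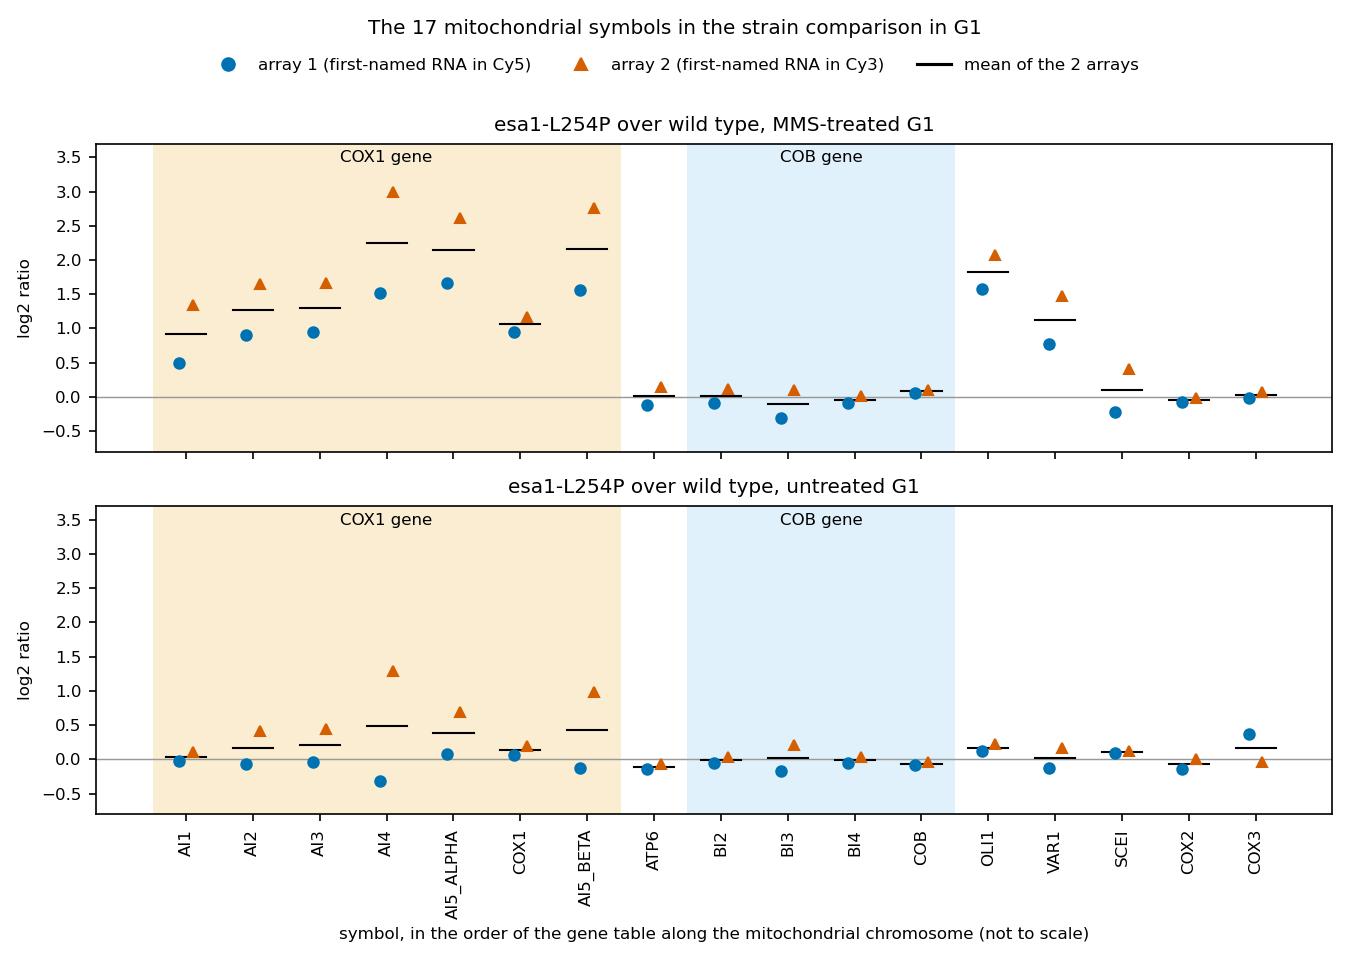
Log2 ratio of esa1-L254P over wild type (vertical axis) for the 17 mitochondrial symbols on the array, in the order of the gene table along the chromosome (horizontal axis, not to scale), for MMS-treated G1 cells above and untreated G1 cells below. Circles and triangles are the 2 dye orientations and bars their means; the 7 symbols of the COX1 gene, OLI1 and VAR1 lie above 0.4 on both arrays with MMS, and the 4 symbols of the COB gene lie between -0.31 and 0.12.

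The array carried 8 further symbols of the mitochondrial chromosome that are not on the list, and they were added after the values of these arrays had been seen. AI1, AI2, AI3 and AI4 are reading frames of other COX1 introns, BI2, BI3 and BI4 are reading frames of COB introns, and SCEI is the endonuclease frame in the intron of the large ribosomal RNA gene. In MMS-treated G1 cells AI4 had log2 ratios of 1.52 and 2.99 in esa1-L254P over wild type. Its mean of 2.25 ± 0.67 (SE of the fit) was the highest ratio of all genes. The adjusted p of AI4 was 0.0645 without the block and 3.05e-06 with it. AI3 had a mean of 1.30, AI2 of 1.27 and AI1 of 0.92, all called higher. All 7 symbols of the COX1 gene were thus above 0.4 on both arrays. The 4 symbols of the COB gene had means from -0.10 to 0.08, and SCEI had -0.22 and 0.41 on its 2 arrays. The 2 spots correlated over the 16 arrays at 0.08 for BI4, 0.21 for COB, 0.64 for BI2 and 0.86 for BI3. Whether the symbols of the COB gene were unchanged or below detection cannot be told without intensities.

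The gene table places AI1, AI2, AI3, AI4 and AI5_ALPHA within COX1 with the same start as COX1, and AI5_BETA within COX1 further along. Spots of these symbols can therefore read the same RNA as COX1 spots, and the 7 symbols are not 7 independent genes. Probe sequences were not used here. ATP6, which follows COX1 in the table and belongs to the same transcription unit, had a mean of 0.02 where COX1 had 1.06. COB lies in the table between ATP6 and OLI1 with ratios near 0. Ratios near 0 can also come from spots below detection, so ATP6 and COB cannot be said to be unchanged.

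MMS over untreated gave the other view of the G1 cells. In esa1-L254P G1 cells OLI1 had log2 ratios of 1.17 and 1.23 with MMS over untreated, and in wild type G1 cells it had -0.24 and -0.09. OLI1 rose 2.30-fold with MMS in esa1-L254P, with a mean of 1.20 ± 0.14 (SE of the fit) and an adjusted p of 0.000423. Its mean in wild type was -0.16 with an adjusted p of 0.41. The arrays of the 2 strains did not overlap. OLI1 was the only member called in either strain in G1, 1 of 9 in esa1-L254P against 13.3% of all genes called higher and 13.9% lower there, and 0 of 9 in wild type against 18.1% higher and 17.9% lower. At an unadjusted p under 0.05, limma called 3 of the 9 in esa1-L254P and 1 in wild type. Shares of all genes were taken at the adjusted threshold only. Counts at an unadjusted p, here and below, thus have no share of all genes beside them.

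AI5_ALPHA had log2 ratios of 0.47 and 1.05 with MMS in esa1-L254P G1 cells and -1.12 and -0.41 in wild type G1 cells, with means of 0.76 and -0.76. The ratios were thus above 0 on both arrays of esa1-L254P and below 0 on both arrays of wild type. VAR1 had 0.39 and 1.07 in esa1-L254P and -0.08 and 0.05 in wild type. AI5_BETA had 0.23 and 1.65 in esa1-L254P and -0.58 and 0.00 in wild type, and COX1 had -0.04 and 0.64 in esa1-L254P and -0.27 and -0.03 in wild type. Of AI5_ALPHA, VAR1, AI5_BETA and COX1, the 2 strains overlapped for COX1 only. The lower esa1-L254P array of COX1 was not above its higher wild type array. These 2 arrays differed in dye orientation. At the same orientation COX1 was higher in esa1-L254P both times, at -0.04 against -0.27 and at 0.64 against -0.03.

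Treating the dye orientation as a block changed these calls. In esa1-L254P G1 cells 5 members were then called, all higher with MMS, against 51.3% of all genes in either direction. Their blocked adjusted p-values were 1.75e-05 for OLI1, 9.84e-05 for AI5_ALPHA, 0.000394 for AI5_BETA, 0.000794 for VAR1 and 0.0340 for COX1. In wild type G1 cells 1 member was called with the block, AI5_ALPHA, lower with MMS with a blocked adjusted p of 6.1e-05, against 56.3% of all genes. The block raises the share of called genes in general, so these counts are read beside those shares.

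The difference between the strains in their response to MMS in G1 was formed from all 4 G1 comparisons, as the mean of the esa1-L254P response minus the wild type response and of the strain ratio with MMS minus the strain ratio without. By this difference 5 of 9 members were called, all more positive in esa1-L254P, against 41.6% of all genes in either direction. The log2 difference was 1.64 for AI5_ALPHA, 1.51 for OLI1, 1.48 for AI5_BETA, 0.93 for VAR1 and 0.69 for COX1. OLI1 was at rank 8 and AI5_ALPHA at rank 4 of all genes counted from the highest difference. The other 4 members lay between -0.04 and 0.13. The count was 3 when the second array of the strain comparison with MMS, the first array of the untreated strain comparison or the first array of wild type MMS over untreated was left out. It was 2, OLI1 and AI5_ALPHA, without the second array of esa1-L254P MMS over untreated. With the block 5 members were called as well, against 63.2% of all genes. A call in this contrast alone therefore does not set the members apart from other genes.

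In S phase the same members were above 0 in esa1-L254P over wild type with MMS, but none passed the test without a block. The comparison called few genes at all, with 0.0246% of all genes higher and 0.0982% lower. An unadjusted p under 0.05 was found for 4 of the 9 members, a count to which those shares do not apply. AI5_BETA had log2 ratios of 0.85 and 1.86, a mean of 1.36 at rank 2 with an adjusted p of 0.631. AI5_ALPHA had 0.87 and 1.30, a mean of 1.09 at rank 4 with an adjusted p of 0.413. VAR1 had 0.26 and 0.94 and was at rank 11, OLI1 had 0.40 and 0.74 and was at rank 16, and COX1 had 0.12 and 0.70 and was at rank 50. All 10 array values of these 5 genes were above 0, and the other 4 members lay between -0.11 and 0.12. With the dye orientation as a block AI5_ALPHA, AI5_BETA, OLI1 and VAR1 were called higher, 4 of 9 against 2.04% of all genes in either direction, with blocked adjusted p-values of 0.000537, 0.000893, 0.00983 and 0.0369.

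In MMS-treated S phase cells compared with untreated ones, the intron frame AI5_ALPHA was called lower in wild type. AI5_BETA had a mean of -0.85 there and was not called (adjusted p 0.225). Of the unlisted COX1 intron frames, AI1, AI2 and AI3 were at -0.05, -0.11 and -0.16 and AI4 was at -1.30. None of them was called without the block, and only AI4 was called with it, lower. AI5_ALPHA had log2 ratios of -0.65 and 0.10 with MMS in esa1-L254P S phase cells and -1.68 and -1.18 in wild type S phase cells. It was 2.70-fold lower with MMS in wild type. Its mean there was -1.43 ± 0.31 (SE of the fit), with an adjusted p of 0.005 and rank 38 from the lowest. OLI1 had -0.17 and 0.26 in esa1-L254P and -0.62 and -0.39 in wild type. Its mean in wild type was -0.51 ± 0.14 (SE of the fit), with an adjusted p of 0.0183. For both genes the arrays of the 2 strains did not overlap. These were the 2 members called in wild type S phase cells, both lower, against 19.1% of all genes higher and 19.2% lower; in esa1-L254P S phase cells none was called, also at an unadjusted p under 0.05, against 16.3% higher and 16.8% lower.

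The calls in wild type S phase cells rested on both arrays. Without the first array no member was called there, with an adjusted p of 0.0967 for AI5_ALPHA and 0.23 for OLI1. Without the second array AI5_ALPHA was called and OLI1 had an adjusted p of 0.0686. AI5_BETA had -0.92 and 0.47 with MMS in esa1-L254P S phase cells and -1.24 and -0.46 in wild type S phase cells, which overlapped. At the same dye orientation its esa1-L254P value was the higher one both times. With the block, esa1-L254P S phase cells had 3 members called, VAR1 higher and COX1 and AI5_ALPHA lower, against 55.7% of all genes. With the block, wild type S phase cells had 4 called, AI5_ALPHA, AI5_BETA, OLI1 and COX1, all lower, against 58.3%.

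The strain difference of the MMS response in S phase was 1.05 for AI5_ALPHA on the log2 scale, with an adjusted p of 0.0368, the only one of the 9 called, against 21.5% of all genes in either direction. Its adjusted p was between 0.0521 and 0.122 when any of 6 of the 8 S phase arrays was left out, so this call depended on most of the arrays. Without the first array of esa1-L254P MMS over untreated in S phase, 3 members were called, with VAR1 and OLI1 added. The difference was 0.80 for AI5_BETA, 0.71 for VAR1, 0.40 for OLI1 and 0.11 for COX1. With the block 4 members were called, AI5_ALPHA, AI5_BETA, VAR1 and OLI1, against 44.2% of all genes.

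Without MMS the strains differed little in these genes. In untreated S phase cells the 9 members had ratios of esa1-L254P over wild type from -0.16 to 0.39 and none was called, against 9.23% of all genes higher and 11.5% lower. In untreated G1 cells they ranged from -0.11 to 0.43 and none was called, against 12.1% higher and 9.31% lower. At an unadjusted p under 0.05 limma called 0 of the 9 in either phase. The arrays of AI5_BETA lay on both sides of 0, at -0.18 and 0.95 in S phase and at -0.13 and 0.99 in G1. With the block 2 members were called in untreated S phase cells, AI5_BETA and OLI1, against 39.5% of all genes, and 2 in untreated G1 cells, AI5_ALPHA and AI5_BETA, against 43.7%, in each case higher in esa1-L254P.

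Between the phases, the MMS response of OLI1 in esa1-L254P was 0.04 in S phase and 1.20 in G1, a log2 difference of -1.16 ± 0.20 (SE) with an adjusted p of 0.00659. The arrays of the 2 phases did not overlap. It was the only member called in that contrast, 1 of 9 against 9.55% of all genes in either direction. In wild type none of the 9 was called, also at an unadjusted p under 0.05, against 32.2% of all genes, with differences from -0.67 for AI5_ALPHA to 0.14 for ATP6. With the block 4 members were called in esa1-L254P, COX1, OLI1, AI5_ALPHA and AI5_BETA, against 27% of all genes, and 3 in wild type, OLI1, AI5_ALPHA and AI5_BETA, against 52.1%, all more negative in S phase.

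The 4 comparisons of a phase form a closed loop, so the ratio of MMS-treated esa1-L254P to untreated wild type can be reached by 2 routes. In G1, OLI1 came to 1.66 by the wild type response plus the strain ratio with MMS, and to 1.37 by the untreated strain ratio plus the esa1-L254P response. The same 2 routes gave 1.87 and 1.37 for AI5_BETA, 1.38 and 1.14 for AI5_ALPHA, 1.11 and 0.75 for VAR1, and 0.91 and 0.43 for COX1. The routes differed by 0.23 to 0.50 for these 5 genes, against a median absolute difference of 0.12 over all genes. Both routes gave positive values for all 5 in G1, and in proportion the values of COX1 were furthest apart. In S phase the 2 routes gave 0.51 and 0.16 for AI5_BETA, 0.44 and 0.33 for VAR1, and 0.06 and 0.36 for OLI1. They gave -0.34 and -0.14 for AI5_ALPHA, negative by both routes, and 0.09 and -0.09 for COX1, whose sign differed between the routes.

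The members that stayed near 0 did so in every comparison. Over the 8 comparisons the standard deviation of the mean log2 ratio was 0.06 for COX2, 0.06 for ATP6, 0.05 for COB and 0.08 for COX3, against a median of 0.33 over all genes, which put them in the lowest 1.3% of genes. It was 1.12 for AI5_ALPHA, 0.98 for AI5_BETA, 0.76 for OLI1, 0.48 for VAR1 and 0.45 for COX1. The 2 spots of a gene correlated over the 16 arrays at 0.951 to 0.995 in these 5 genes and at -0.21 to 0.56 in the other 4. A gene near 0 on every array whose spots do not move together can be unchanged or can be below detection, and without intensities the 2 cannot be told apart.

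The largest value among the 4 came from a single spot. COX3 had log2 ratios of 0.37 and -0.04 in untreated G1 cells, esa1-L254P over wild type. On the first of these arrays its 2 spots read 0.86 and -0.05. Without the first spot the mean was -0.03, against 0.16 with it.

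Dye orientation moved with the values of the 5 members. The array with the first-named RNA in Cy3 read higher than the array with it in Cy5 in 8 of 8 comparisons for COX1, AI5_ALPHA, AI5_BETA, OLI1 and VAR1, and also for ATP6. This held for 21.9% of all genes. The mean difference between the 2 arrays was 1.08 for AI5_BETA, 0.65 for AI5_ALPHA, 0.47 for VAR1, 0.40 for COX1 and 0.25 for OLI1 on the log2 scale. Only a dye effect of constant size cancels in the mean of the 2 orientations, and the gap varied between comparisons. With MMS over untreated, AI5_BETA read -0.58 and 0.00 in wild type G1 cells and 0.23 and 1.65 in esa1-L254P G1 cells. How much of these values came from the dyes was not tested. In esa1-L254P over wild type with MMS in G1, where these 5 were called, all 5 were above 0.75 in both orientations.

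**Figure D3:**
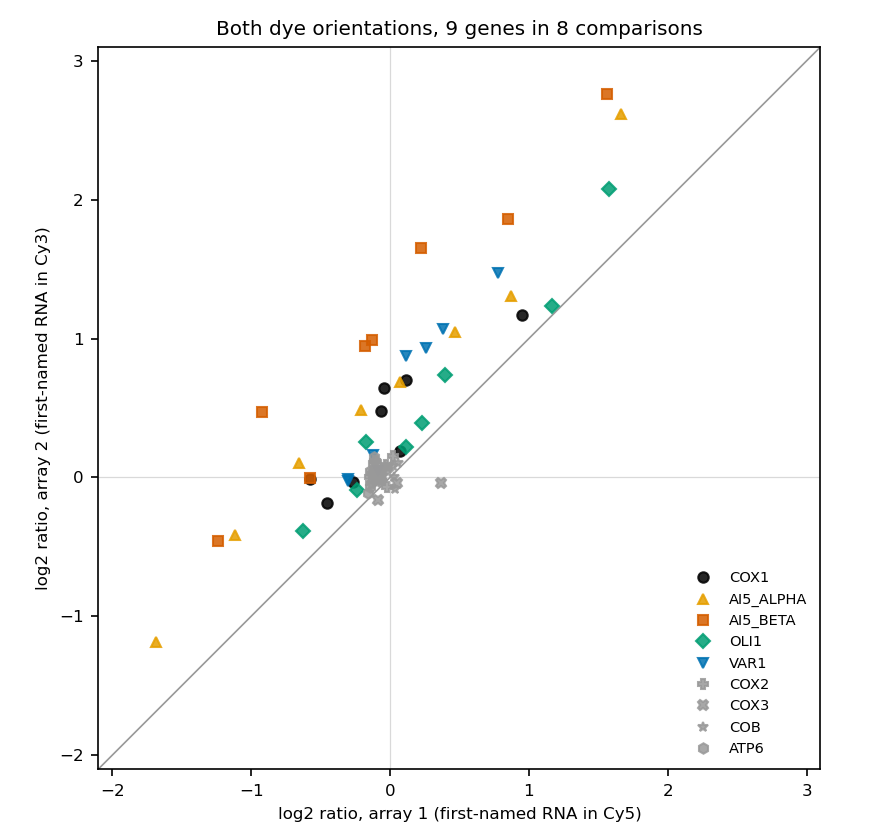
Log2 ratio with the first-named RNA in Cy3 (vertical axis) against that with it in Cy5 (horizontal axis) for 9 genes in 8 comparisons; each point is 1 gene in 1 comparison and the line marks equal values. Points of COX1, AI5_ALPHA, AI5_BETA, OLI1 and VAR1 lie above the line in all 8 comparisons, and COX2, COX3, COB and ATP6 gather near 0.

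The 5 genes also moved together, but they were singled out by their calls in the same comparison, so a positive correlation was partly built in. COX1, AI5_ALPHA and AI5_BETA also lie in the same gene and can read the same RNA. The ratios of the 5 correlated pairwise at 0.77 to 0.96 over the 16 arrays, which share RNA samples and dye effects, so this is a description. By Pearson correlation with the mean of the 9 members over the 8 comparisons, the most similar other genes were AI4 at 0.987, AI3 at 0.984, AI2 at 0.976, YCK2 at 0.975 and AAP1 at 0.973. AI4, AI3 and AI2 lie in the COX1 gene as well. YCK2, a nuclear casein kinase gene, moved over a narrow range, with 0.32 in esa1-L254P over wild type with MMS in G1 (adjusted p 0.0545, and 0.0210 with the block), and its 2 spots did not correlate over the arrays.

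The symbol AAP1 has 2 readings. It names a nuclear aminopeptidase gene of chromosome VIII, and the gene table also lists it as a synonym of ATP8 of the mitochondrial chromosome, and the annotation of the array does not settle which gene its spots represent. AAP1 had log2 ratios of 0.59 and 1.81 in esa1-L254P over wild type with MMS in G1, a mean of 1.20 at rank 24 with an adjusted p of 0.123, and 0.000421 with the block. It read higher with the first-named RNA in Cy3 in 8 of 8 comparisons, with a mean difference of 0.91 between orientations. Its 2 spots correlated at 0.98 over the arrays. In MMS-treated S phase cells it had 0.06 and 1.11 for the same strain ratio.

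The nuclear genes for the same complexes were read beside them. They were 35 nuclear genes for subunits of cytochrome oxidase, the bc1 complex and ATP synthase, with the ATP synthase regulators INH1, STF1 and STF2 included. In esa1-L254P over wild type with MMS in G1, none of the 35 was called by limma, 1 had an unadjusted p under 0.05, and their median was 0.16. With the block 3 were called, all higher, against 29.5% of all genes in either direction. With MMS in esa1-L254P G1 cells 17 of the 35 were lower and none higher, against 13.9% of all genes lower and 13.3% higher, with a median of -0.93. In wild type G1 cells 12 were lower and 3 higher, against 17.9% of all genes lower and 18.1% higher, with a median of -0.42. The higher ones were STF2 at 1.38, COX5B at 0.49 and STF1 at 0.48. By complex, and read beside the same 13.9%, 7 of 9 nuclear cytochrome oxidase genes were lower in esa1-L254P G1 cells, among them COX12 at -1.72 and COX7 at -1.70, both small structural subunits. Of 9 nuclear bc1 genes 6 were lower, among them QCR7 at -1.57 and QCR6 at -1.39. Of 17 nuclear ATP synthase genes 4 were lower, among them INH1, the ATPase inhibitor gene, at -1.34 and ATP19 at -1.27. With the block 7 of the 17 were lower, against 51.3% of all genes in either direction. OLI1, the mitochondrial gene of the same complex, was at 1.20 in that comparison.

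**Figure D4:**
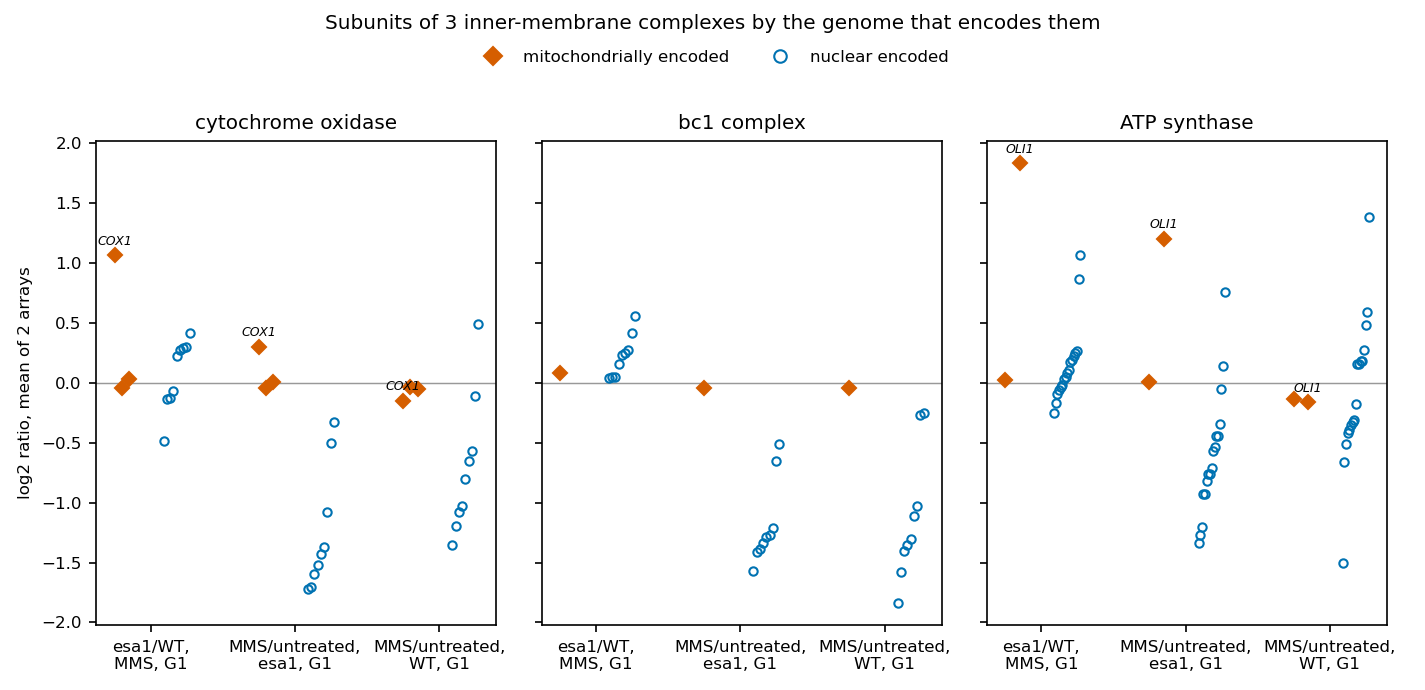
Mean log2 ratio of 2 arrays (vertical axis) for subunit genes of cytochrome oxidase, the bc1 complex and ATP synthase, with the regulators INH1, STF1 and STF2 among the last, in 3 G1 comparisons (horizontal axis; esa1 stands for esa1-L254P and WT for wild type). Filled diamonds are mitochondrially encoded genes and open circles nuclear genes; with MMS in esa1-L254P the nuclear genes have a median of -0.93 while OLI1 lies at 1.20.

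Genes that make or process mitochondrial RNA were followed through lists chosen with earlier results of these data known, with some genes on more than one list. Their counts in esa1-L254P over wild type with MMS in G1 stand beside 4.54% of all genes higher and 5.25% lower, and those with the block beside 29.5% in either direction. In esa1-L254P over wild type with MMS in G1, 0 of 12 genes of mitochondrial transcription and RNA turnover were higher and 2 were lower, MTF2 at -0.31 and MTF1 at -0.28, the gene of the polymerase's specificity factor. Of 9 splicing genes 2 were lower, PET54 at -0.37 and MSS18 at -0.33, and none was higher, while the block added 1 that was higher. Of 18 genes for translational activators and messenger stability factors 3 were lower and none higher, against 3 lower and 3 higher with the block, among the lower ones CBP6 at -0.46 and CBS1 at -0.45, which both act on COB messenger RNA. Of 22 assembly factor genes 1 was higher, COX19 at 0.54, and 2 were lower, COX17 at -0.70 and PET117 at -0.37, and with the block 4 were higher and 5 lower.

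With MMS in esa1-L254P G1 cells, 6 of the 12 transcription and turnover genes were lower and none higher, against 13.9% of all genes lower and 13.3% higher. RPO41, the gene of the mitochondrial RNA polymerase, had -0.58 and -0.86 with a mean of -0.72. SUV3, the helicase gene of the mitochondrial RNA degradosome, had -0.90 and -0.42 with a mean of -0.66. In wild type G1 cells 4 of the 12 were higher and 2 lower, against 18.1% of all genes higher and 17.9% lower. With the block 4 were higher and 7 lower there, against 56.3% of all genes in either direction. MSS116, an RNA helicase gene needed for splicing, was at -0.54 with MMS in esa1-L254P and at 0.67 in wild type. Of 7 genes of the Hap complex and related regulators 1 was called in the strain ratio with MMS in G1, ROX1, a repressor of hypoxic genes, at 0.51. With the block 5 of the 7 were higher and 1 lower, against 29.5% of all genes in either direction.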

How the data were processed

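The deposited value table holds 1 column for each of 16 two-colour arrays and 15744 rows. The authors' values are log2 ratios on the reading used here, since no source states the base; the column medians ran from -0.0058 to 0.0048, so the arrays had been centred before deposit. R 3.1.1 and limma 3.0 were used upstream, per the submitters' processing notes; their settings are not given in the sources used here.

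Rows were matched to probes through the order described in the report, found on 2037 genes and checked on 2036 others. Of the spots, 8152 carried 1 gene symbol and 7592 none; 4070 genes had 2 spots and 3 had 4. Spots of a gene were averaged, values of the second array of each comparison were multiplied by -1, and each array was centred on the median over genes. All 16 arrays entered 1 limma 3.58.1 fit (R 4.3.3) with a coefficient for each of 8 comparisons, 8 residual degrees of freedom and a median standard error of 0.149, with Benjamini-Hochberg adjustment over 4073 genes and a threshold of 0.05. With only 2 arrays a comparison, the number of arrays limits the precision.

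Array numbers are shared between comparisons and mark the dye orientation: deviations of same-numbered arrays correlated at 0.619 to 0.892 over 28 pairs of comparisons, so the numbers pair the arrays, and the fit with the number as a block (median standard error 0.093) is given beside the results where it changed the call of a member or of another named gene, or moved a list's count.

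The members and lists were chosen with earlier results of these data known. Named genes are all members, up to 2 genes a direction from each other list by size among called genes with both arrays on the same side, MAG1, RNR3 and HUG1 as a check of labels, and the 5 genes most like the members' mean. The symbols beyond the list were added after the values were seen. Gene names come from the RefSeq gene table, and the order and nesting of the mitochondrial symbols from its start and end coordinates. No sequence was used. Alternatives were the block, no centring, scaled arrays, 1 spot a gene, robust empirical Bayes, unnamed spots in the fit, and each array left out.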

Additional observations from a re-analysis of the deposited data

Results flagged for a closer look

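The response to MMS differed between the strains in G1 for 5 genes, by a test of the difference itself in limma with adjustment over all genes. That contrast called 41.6% of all genes in either direction, so a call alone does not set these genes apart. The log2 difference, esa1-L254P minus wild type, was 1.6415 for AI5_ALPHA (adjusted p 0.00214), 1.5137 for OLI1 (adjusted p 3.77e-05), 1.4807 for AI5_BETA (adjusted p 0.0396), 0.9251 for VAR1 (adjusted p 0.0130) and 0.6916 for COX1 (adjusted p 0.0245). In S phase it differed for AI5_ALPHA alone among the 9 genes, by 1.0537 (adjusted p 0.0368), against 21.5% of all genes, a larger share than 1 of 9. This call depended on most of the S phase arrays. It was lost with the first spot alone (adjusted p 0.0895) and with unnamed spots in the fit (adjusted p 0.0507). The response of OLI1 in esa1-L254P differed between S phase and G1 by -1.1591 (adjusted p 0.00659), against 9.55% of all genes called, a share close to 1 of 9. With the first spot alone the adjusted p of this difference was 0.0513. All of these genes read higher in 1 dye orientation in 8 of 8 comparisons. Only a dye effect of constant size cancels in these differences, and the gap between orientations varied between comparisons. With the dye orientation as a block the same differences had adjusted p-values of 1.23e-06 for AI5_ALPHA, 1.67e-06 for OLI1, 1.42e-05 for AI5_BETA, 0.000119 for VAR1 and 0.000297 for COX1 in G1, 5.99e-05 for AI5_ALPHA in S phase and 0.000205 for the phase difference of OLI1. The block called 63.2% of all genes for the strain difference in G1 and 44.2% for that in S phase. It called 27% for the phase difference in esa1-L254P. The list was chosen after values of these arrays had been seen.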

How the results depend on the processing

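No value that passed the test changed sign under the alternatives run. Values that had not passed did: COX3 in esa1-L254P over wild type, untreated G1, was 0.16, against -0.03 from the second spot alone or without the spot apart from its duplicate, and -0.04 without the first array, and the medians below that span 0 changed sign. With the replicate block, a paired analysis by dye orientation, the number of members called became 5 against 1 for MMS over untreated in esa1-L254P G1, 3 against 0 in esa1-L254P S, 1 against 0 in wild type G1 and 4 against 2 in wild type S, 4 against 0 for esa1-L254P over wild type with MMS in S, 2 against 0 in untreated cells of either phase, 4 against 1 and 3 against 0 for the phase difference in esa1-L254P and wild type, and 4 against 1 for the strain difference in S. It changed no other count. The block also raised the share of all genes called. For MMS over untreated this share was 51.3% in esa1-L254P G1, 55.7% in esa1-L254P S, 56.3% in wild type G1 and 58.3% in wild type S. For esa1-L254P over wild type it was 2.04% with MMS in S, 39.5% untreated in S and 43.7% untreated in G1. It was 27% and 52.1% for the phase difference in esa1-L254P and wild type, and 44.2% for the strain difference in S. Without centring 2 were called for esa1-L254P G1 and 2 for the strain difference in S. The first spot alone gave 2 for esa1-L254P G1, 1 for wild type S and 0 for the phase difference in esa1-L254P and the strain difference in S. The second spot alone gave 1 for wild type G1, 3 against 5 for the strain difference in G1 and 2 in S. Arrays scaled to equal spread gave 1 for wild type S and 2 for esa1-L254P over wild type with MMS in S, and unnamed spots in the fit gave 0 for the strain difference in S and 4 against 5 in G1, where AI5_BETA had an adjusted p of 0.0637. The cause of these moves was not tested.

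With 1 array left out at a time, the count was 1 to 2 against 5 for esa1-L254P over wild type with MMS in G1, 0 to 1 against 2 for wild type S, 2 to 5 for the strain difference in G1 and 0 to 3 in S, on fewer arrays. The strain difference in G1 gave 2 without the second array of MMS over untreated in esa1-L254P G1, OLI1 and AI5_ALPHA. The median of the members ran from 0.78 to 1.17 for esa1-L254P over wild type with MMS in G1, 0.12 to 0.70 with MMS in S, -0.09 to 0.16 untreated in G1 and -0.14 to 0.05 untreated in S. For MMS over untreated it ran from 0.05 to 0.64 in esa1-L254P G1, -0.12 to 0.11 in esa1-L254P S, -0.16 to -0.028 in wild type G1 and -0.30 to -0.16 in wild type S. For the phase difference it ran from -0.61 to 0.05 in esa1-L254P and -0.28 to -0.036 in wild type, and for the strain difference from 0.52 to 0.86 in G1 and 0.04 to 0.26 in S.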

Other observations

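Nuclear genes that maintain mitochondrial DNA were also read, 17 of 17 listed. In esa1-L254P over wild type with MMS in G1, 1 was lower, PIF1, a DNA helicase gene, at -0.33, and none was higher, against 5.25% of all genes lower and 4.54% higher. With the block 2 were lower and 4 higher, against 29.5% of all genes in either direction. With MMS in S phase cells 3 were higher and 3 lower in esa1-L254P, against 16.3% and 16.8% of all genes. In wild type S phase cells 2 were higher and 3 lower, against 19.1% and 19.2% of all genes. These shares are close to those over all genes. MIP1, the mitochondrial DNA polymerase gene, had -0.92 and -0.43 with MMS in esa1-L254P S phase cells and -1.21 and -0.94 in wild type S phase cells, so the arrays of the 2 strains did not overlap by a small margin. DIN7, a mitochondrial nuclease gene induced by DNA damage, had 0.68 and 0.59 with MMS in esa1-L254P G1 cells, and 0.78 and 0.79 in wild type S phase cells.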
